A study of Mus musculus with 8 samples.

Results

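The genes described here encode the coat of the lipid droplet and the enzymes that fill and empty it: the perilipins Plin2, Plin3, Plin4 and Plin5, the CIDE family members Cidea and Cidec, the lipases Pnpla2 and Lipe, the lipase inhibitor G0s2, and the synthetic enzyme Dgat2. Every non-control probe carrying one of these names was taken, which gave 11 probes for 10 genes, of 39429 probes on the array. All 10 genes were well above background in at least 4 of the 8 samples and were tested among 18132 genes, and Adipoq and Cfd, with 1 probe each, were read beside them as markers of fat. Left ventricle RNA came from males of the inbred strain C57Bl/6j, with no engineered allele named in the labels. They were killed at 16 weeks of age after 8 weeks on normal salt (0.4% Na) or low salt (0.05% Na), with 4 mice in each diet group. Septum, free wall and apex were homogenised together. Each of 4 two-colour arrays carried 2 mice of a single diet, mice 1 and 2 or mice 3 and 4, with odd-numbered mice in Cy3 and even-numbered mice in Cy5.

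A lipid droplet is a store of triacylglycerol and sterol ester under a phospholipid monolayer, and perilipins sit on that surface and control the access of lipases. Pnpla2 (ATGL) takes the first fatty acid off triacylglycerol, with Abhd5 as its coactivator and G0s2 as its inhibitor. Lipe (hormone-sensitive lipase) acts on the diacylglycerol, and Mgll on the monoacylglycerol. Dgat2 adds the last fatty acid in synthesis, and the CIDE proteins transfer lipid between droplets that touch. In heart muscle, which burns fatty acids, Plin5 holds droplets close to mitochondria, while Plin1, Cidec, Adipoq and Cfd are best known from adipocytes.

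The arrays read each gene through a probe of 60 bases from the transcript. Of these, 4 are shown: that of G0s2, whose diet difference was the furthest from 0 in the set, those of Cidec and Lipe, both best known from fat, and that of the fat marker Adipoq. They are written 5′ to 3′ as the array design gives them, with mm9 coordinates. The G0s2 probe lies at chr1:195098925-195098984 on the minus strand. Its first 16 bases are left out, the 44 from the start codon onward are printed, and capitals mark that codon. The Cidec probe is at chr6:113378116-113378175 (minus strand), the Lipe probe at chr7:26165828-26165887 (minus strand) and the Adipoq probe at chr16:23157576-23157635 (plus strand).
G0s2: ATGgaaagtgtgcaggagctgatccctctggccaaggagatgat
Cidec: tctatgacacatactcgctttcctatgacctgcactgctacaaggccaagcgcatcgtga
Lipe: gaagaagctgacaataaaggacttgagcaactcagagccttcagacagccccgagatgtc
Adipoq: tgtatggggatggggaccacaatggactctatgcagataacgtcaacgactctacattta

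Spots had a median intensity of 116.2 to 147.0 per sample, above a median local background of 15.5 to 33.5, and the share of non-control spots well above background ran from 53.0% to 66.3%. The labels do not say more of the replicates than that each is a mouse, and precision is limited by there being only 4 arrays. Ventricular identity was checked on Myl2, the ventricular myosin light chain, which lay between 17.68 and 18.69 log2 normalised intensity in all samples. The atrial light chain Myl4 ranged from 11.00 to 15.50 and Sln (sarcolipin, also atrial) from 8.79 to 13.84, with normal salt mice 3 and 4 highest for both. In limma 0 of 7 ventricle or general heart muscle markers passed the test, with a median difference of -0.07. At an unadjusted p under 0.05 there were 2, against 2045 of all 18132 genes. Of the 7, 5 were lower and 2 higher with low salt, Irx4 among the higher (0.31, adjusted p 0.474). Of 4 measured atrial markers 0 passed (0 at an unadjusted p under 0.05, median -1.52). Of these, 3 were lower and 1 was higher (Nppa, 0.41, adjusted p 0.771). The smallest p-values of these lists belonged to cardiac actin Actc1 (-0.38, adjusted p 0.349) and troponin Tnni3 (-0.26, adjusted p 0.421), and to Myl4 (-1.97, adjusted p 0.491) and Sln (-2.17, adjusted p 0.532). The 4 arrays shared a slide, with neighbouring positions used for each diet, so that position and diet cannot be told apart.

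With low salt, 7 of the 10 genes had a lower mean and 3 a higher mean than with normal salt, and none passed the test. In limma, 0 of 10 were higher at an adjusted p under 0.05, against 0.827% of all genes tested, and 0 were lower, against 0.0386%. At an unadjusted p under 0.05, 1 member (Plin3) was higher, where 7.02% of all genes were, and 1 (G0s2) was lower, where 4.26% were. The 4 mice of each diet stood wholly apart for 2 members that were higher (Plin3 and Cidec), against 8.01% of all genes. They also did for 3 that were lower (Plin4, G0s2 and Dgat2), against 4.78%. The 2 higher members carry limits. Cidec was near background and passed the filter mainly through the low salt group (3 mice well above background, against 1), so its separation is no evidence of a diet difference. With the median of neighbouring spots subtracted, the Plin3 difference was 0.08. The median difference over the members was -0.29 on the log2 scale (low salt minus normal salt), and over all genes it was 0.01, with quartiles of -0.12 and 0.14. Members were chosen with earlier results of these data known, so this contrast is a description and no test of a shift. With mouse number as a replicate block, in place of the array, 1 member was higher (Plin3) and 2 were lower (Plin4 and G0s2), while 550 of all genes were called higher and 178 lower. That fit has no array term, and with neither term 489 and 141 were called, against 150 and 7 with the array as a block. In whole ventricle RNA, fewer cells of a type and less RNA per cell cannot be told apart.

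**Figure D1:**
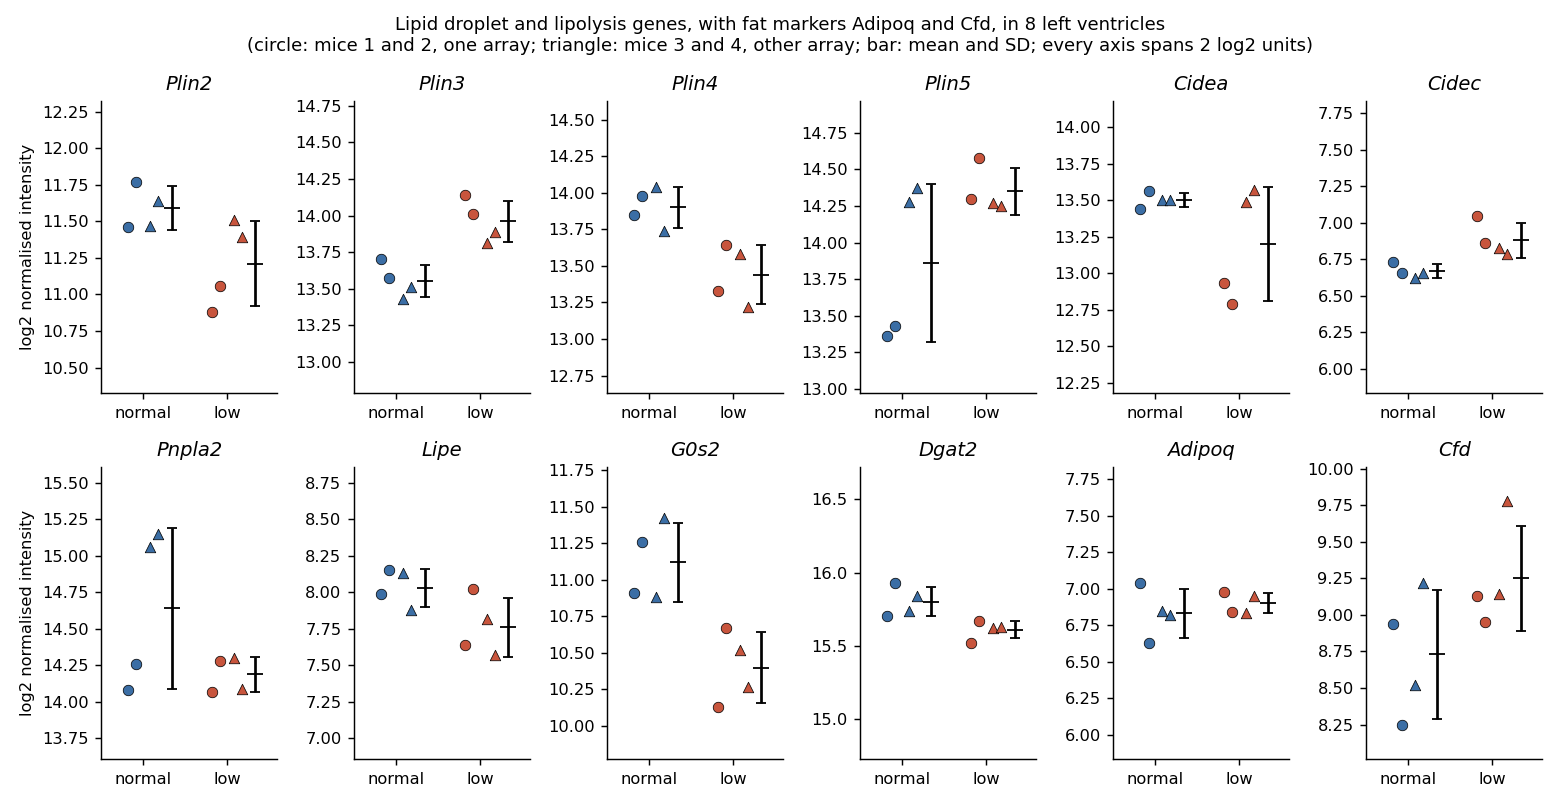
Each panel plots the log2 normalised intensity of a gene in the 4 normal salt and 4 low salt mice (circles, mice 1 and 2 of a diet; triangles, mice 3 and 4), with the mean and SD as bars. All axes span 2 log2 units but start at different levels. The low salt points of G0s2 (10.13 to 10.67) lie below all normal salt points (10.88 to 11.42), while Plin5 and Pnpla2 split by array among the normal salt mice.

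G0s2, the inhibitor of Pnpla2, was lower in all 4 low salt mice than in any normal salt mouse. Its log2 normalised intensity was 10.91, 11.26, 10.88 and 11.42 in normal salt mice 1 to 4, and 10.13, 10.67, 10.52 and 10.27 in low salt mice 1 to 4. The groups did not overlap, and the arrays of each diet held similar values. The means were 11.12 ± 0.27 (SD, n = 4) and 10.40 ± 0.24, a difference of -0.72 ± 0.22 (SE) and a level 1.65-fold lower with low salt, with a 95% interval from -1.24 to -0.21. The adjusted p was 0.273 over all genes in limma. It was 0.196 with the 2 mice of an array averaged, 0.0471 with mouse number as a block and 0.0278 with no array term. The last 2 fits take the mice of an array as independent, while the correlation within arrays was estimated at 0.553 over all genes. The difference was -0.57 between the Cy3 samples and -0.87 between the Cy5 samples. With normexp fitted on all spots it was -0.42 (adjusted p 0.3 in limma), the smallest size over the alternative settings.

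The lipase Pnpla2 itself did not differ beyond the spread of the normal salt mice. It stood at 14.08, 14.26, 15.06 and 15.15 with normal salt and at 14.07, 14.28, 14.30 and 14.09 with low salt (probe at chr7:148645928-148645987, plus strand). Normal salt mice 3 and 4, which shared an array, were the high ones, and the other 6 mice lay within the same narrow range. The gap of 0.93 between the normal salt arrays was matched or exceeded in 2.12% of all genes. The means were 14.64 ± 0.55 (SD, n = 4) and 14.19 ± 0.12, the difference was -0.45 ± 0.27 (SE; 95% interval -1.06 to 0.16), and the adjusted p was 0.542. With the array that carried normal salt mice 3 and 4 left out the difference was 0.01 (adjusted p 0.982). With the other normal salt array left out it was -0.92 (adjusted p 0.057). Either fit keeps a single normal salt array, so its p does not measure diet apart from that array. Normal salt mice 3 and 4 also had the highest Myl4 (15.50 and 15.30) and Sln (13.84 and 13.38). Mouse 2 of each diet came next, with Myl4 at 14.49 (normal salt) and 13.97 (low salt) and Sln at 12.42 and 12.07. Pnpla2 in these mice was 14.26 and 14.28. The part of atrial tissue in the Pnpla2 values was not tested.

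Lipe overlapped between the diets. Its level was 7.99, 8.15, 8.13 and 7.88 with normal salt and 7.64, 8.02, 7.82 and 7.57 with low salt. Low salt mouse 2 lay among the normal salt mice and the others of its group lay below them all. The difference was -0.27 ± 0.20 (SE; 95% interval -0.73 to 0.18, adjusted p 0.609), between means of 8.03 ± 0.13 (SD, n = 4) and 7.76 ± 0.20. It was -0.53 with the scanner's processed signal, -0.05 with normexp fitted on all spots and -0.11 with the mean of Adipoq and Cfd as a covariate.

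Among the coat proteins, Plin4, a perilipin of fat and muscle that binds nascent droplets, was lower in every low salt mouse. It was read at chr17:56240055-56240114 (minus strand) as 13.85, 13.98, 14.04 and 13.74 with normal salt and as 13.33, 13.64, 13.58 and 13.22 with low salt. The groups stood apart, by a narrow margin between normal salt mouse 4 and low salt mouse 2. Means were 13.90 ± 0.14 (SD, n = 4) and 13.44 ± 0.20, and the difference of -0.46 ± 0.20 (SE; 95% interval -0.92 to 0.00) had an adjusted p of 0.444. Under the mouse number block, which has no array term, the adjusted p was 0.0259. With the 2 mice of an array averaged it was 0.354. With the mean of Adipoq and Cfd as a covariate the difference was -0.29 (adjusted p 0.657).

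Plin2, the perilipin found on droplets of most tissues and a usual gauge of stored lipid, was read at chr4:86302847-86302906 (minus strand). Normal salt mice had 11.46, 11.77, 11.47 and 11.64, and low salt mice 10.88, 11.06, 11.51 and 11.39. Low salt mice 1 and 2, from the same array, were below all others, while mouse 3 lay within the normal salt range. The means were 11.59 ± 0.15 (SD, n = 4) and 11.21 ± 0.29, with a difference of -0.38 ± 0.17 (SE; 95% interval -0.78 to 0.02) and an adjusted p of 0.461. When the array of low salt mice 3 and 4 was left out, the difference was -0.61 with an adjusted p of 0.0241. When that of low salt mice 1 and 2 was left out it was -0.14 (adjusted p 0.762). Each came from a single low salt array, so neither p measures diet apart from the array kept.

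Plin3, a perilipin that moves from the cytosol to growing droplets, was higher in all low salt mice, but so were the spots around its probe. The probe (chr17:56418429-56418488, minus strand) gave 13.70, 13.57, 13.43 and 13.51 with normal salt and 14.14, 14.01, 13.81 and 13.89 with low salt, with no overlap. The difference was 0.41 ± 0.13 (SE; 95% interval 0.12 to 0.70, adjusted p 0.269), between means of 13.55 ± 0.11 (SD, n = 4) and 13.96 ± 0.14, a 1.33-fold higher level. The mouse number block, which has no array term, gave an adjusted p of 0.0283. Averaging the 2 mice of an array gave 0.51. The median over neighbouring spots of the array, whatever their gene, was itself 0.33 higher in the low salt samples at this place, the largest such shift among the probes used for the 10 members. With that local trend subtracted the difference was 0.08 (adjusted p 0.815), and with the scanner's own processed signal it was 0.13 (adjusted p 0.766). For the probes used for the other 9 members the local shift lay between -0.04 and 0.05.

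Plin5, the perilipin of oxidative muscle, split the normal salt mice by array. Its probe (chr17:56251025-56251084, minus strand) read 13.36, 13.43, 14.28 and 14.37 with normal salt and 14.30, 14.58, 14.27 and 14.25 with low salt. Normal salt mice 1 and 2 were low, and mice 3 and 4 lay among the low salt mice. The gap between the normal salt arrays was 0.93, and 2.14% of all genes had a gap as large. The difference was 0.49 ± 0.26 (SE; 95% interval -0.10 to 1.08, adjusted p 0.501), between means of 13.86 ± 0.54 (SD, n = 4) and 14.35 ± 0.16. Leaving out the array with normal salt mice 3 and 4 gave 0.96 (adjusted p 0.0442). Leaving out the one with normal salt mice 1 and 2 gave 0.03 (adjusted p 0.972). Either fit keeps a single normal salt array, so its p does not measure diet apart from that array.

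**Figure D2:**
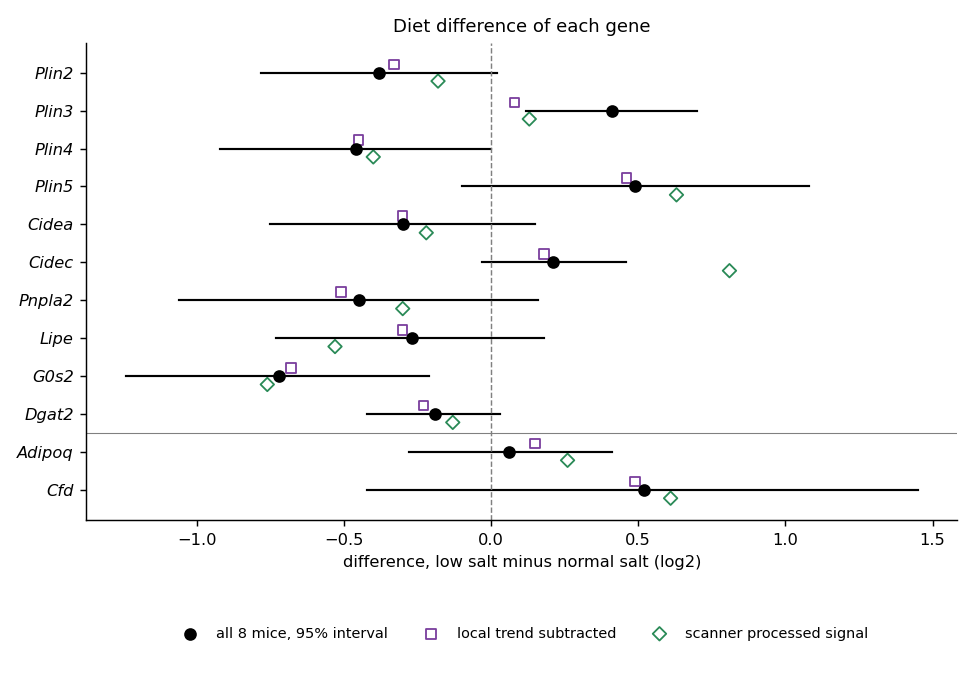
Points give the fitted difference (low salt minus normal salt, log2) of each gene with its 95% interval over 8 mice; squares have the local trend of neighbouring spots subtracted and diamonds use the scanner's processed signal. The interval of G0s2 (-1.24 to -0.21) excludes 0, that of Plin3 (0.12 to 0.70) does too, and the square of Plin3 sits at 0.08. Adipoq and Cfd are below the line.

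Cidea, the CIDE protein known from brown fat, was well above background in all samples and split by array among the low salt mice. Its probe (chr18:67527351-67527410 on mm9, plus strand) gave 13.44, 13.56, 13.50 and 13.50 with normal salt and 12.93, 12.79, 13.49 and 13.57 with low salt. Low salt mice 1 and 2 were below the rest, and mice 3 and 4 were close to the normal salt level. The gap of 0.67 between the low salt arrays was reached by 4.34% of all genes. With means of 13.50 ± 0.05 (SD, n = 4) and 13.20 ± 0.39, the difference was -0.30 ± 0.20 (SE; 95% interval -0.75 to 0.15, adjusted p 0.571). Leaving out the array with low salt mice 1 and 2 gave 0.03 (adjusted p 0.915). Leaving out the one with low salt mice 3 and 4 gave -0.64 (adjusted p 0.0298). Either fit keeps a single low salt array, so its p does not measure diet apart from that array. Without mice 3 and 4, 655 of all genes were called lower and 450 higher, against 7 and 150 with all arrays.

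Cidec, the CIDE protein of white fat, was close to background. Its brighter probe was well above background in 1 of the 4 normal salt and 3 of the 4 low salt mice, with 6.73, 6.66, 6.62 and 6.66 against 7.05, 6.86, 6.83 and 6.79. The lowest signal that counted as well above background in a sample was 6.08 to 6.18 in both groups. The low salt mice were all higher, by 0.21 ± 0.11 (SE; 95% interval -0.03 to 0.46, adjusted p 0.485), between means of 6.67 ± 0.05 (SD, n = 4) and 6.88 ± 0.12. This difference was 0.81 with the processed signal (adjusted p 0.263) and 0.02 with normexp fitted on all spots (adjusted p 0.638). The other Cidec probe (chr6:113374630-113374689, minus strand) was well above background in only 2 samples and was not tested. It differed by 0.27 with overlapping groups, where the neighbouring spots were 0.29 higher.

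Dgat2, which completes triacylglycerol synthesis, was slightly lower in every low salt mouse. At its probe (chr7:106302215-106302274, minus strand) the level was 15.70, 15.93, 15.74 and 15.84 with normal salt and 15.52, 15.67, 15.62 and 15.63 with low salt. The groups did not overlap, and the margin between low salt mouse 2 and normal salt mouse 1 was small. The means were 15.80 ± 0.10 (SD, n = 4) and 15.61 ± 0.06, a difference of -0.19 ± 0.10 (SE; 95% interval -0.42 to 0.03) with an adjusted p of 0.491. Over the 27 alternative settings the difference of Dgat2 lay between -0.23 and -0.13. With groups that did not overlap, leaving out mice or arrays could hardly turn its sign, so this range is no test of it.

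The fat markers did not separate the diets. Adipoq, the hormone adiponectin made by adipocytes, was 7.04, 6.63, 6.85 and 6.82 with normal salt and 6.98, 6.84, 6.83 and 6.95 with low salt, and was well above background in 7 of 8 samples. Its difference was 0.06 ± 0.15 (SE; 95% interval -0.28 to 0.41, adjusted p 0.89), between means of 6.83 ± 0.17 (SD, n = 4) and 6.90 ± 0.07. Cfd, the secreted protease adipsin, was well above background in all samples (probe at chr10:79355302-79355361, plus strand). It read 8.94, 8.25, 8.52 and 9.22 with normal salt and 9.13, 8.95, 9.14 and 9.78 with low salt, a wide spread with overlap. The difference was 0.52 ± 0.41 (SE; 95% interval -0.42 to 1.45, adjusted p 0.641), between means of 8.73 ± 0.44 (SD, n = 4) and 9.25 ± 0.36.

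Of 16 adipocyte markers, 12 were measured and 0 passed the test in limma, with a median difference of 0.10. At an unadjusted p under 0.05 there was 1, against 2045 of all 18132 genes. Plin1, the perilipin of adipocytes, was well above background in 3 samples, and Ucp1, which marks brown fat, in 0. The mean log2 level over the 9 measured markers other than Cidea, Cidec and Fabp4 ranged from 7.76 to 7.98 with normal salt and from 7.93 to 8.09 with low salt. This mean mixes dim and bright genes. Lep and Pck1 were each well above background in only 2 mice of each diet, while Thrsp had means of 11.60 and 11.79. Fabp4, a fatty acid carrier of fat that capillary endothelium also makes, had the smallest p of the list, with a difference of -0.90 ± 0.36 (SE, adjusted p 0.412). It was lowest in low salt mice 1 and 2 (14.51 and 14.97), the same mice in which Plin2 and Cidea were lowest, and highest in normal salt mice 3 and 4 (16.64 and 16.28).

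Across the 8 mice, each member was set against each fat marker, giving 20 pairs with an exact 2-sided permutation test. The one pair with an adjusted p under 0.05 by Pearson's r was Cfd and Lipe (r = -0.89, exact p = 0.00213, adjusted p 0.0427), and by Spearman's rho 0 pairs were (Cfd and Lipe, rho = -0.881, exact p = 0.00724, adjusted p 0.145). In both diets Lipe was highest in mouse 2 and lowest in mouse 4, and Cfd lowest in mouse 2 and highest in mouse 4. The test takes the 8 mice as independent, and since a mouse number also fixes the dye and same-numbered mice deviated together, its p counts a pattern that repeats by number as if it came from separate mice. This limit of the test applies to all 20 pairs. Without the 2 mice farthest from the median of Cfd, r was -0.783, and with each array's mean subtracted it was -0.80. Subtracting an array's mean leaves its 2 mice as mirror images. Such an r, here and below, rests on a single difference between the dyes per array and does not remove a dye effect. Plin4 ran the same way against Cfd (r = -0.86, exact p = 0.0062, adjusted p 0.062; rho = -0.81, exact p = 0.0218, adjusted p 0.218), with r = -0.733 without the 2 farthest mice and -0.859 with array means subtracted. Dgat2 against Adipoq gave r = -0.735 (exact p = 0.038, adjusted p 0.253; rho = -0.548, exact p = 0.171, adjusted p 0.618), with -0.759 and -0.896 in the same checks. Adipoq stayed between 6.63 and 7.04 in the 8 mice, a level as low as that of Cidec, which limits every r with Adipoq. For the CIDE members, r with Cfd was -0.0376 for Cidea (exact p = 0.935; rho = 0.0714) and 0.409 for Cidec (exact p = 0.311; rho = 0.31), and r with Adipoq was -0.233 (exact p = 0.526; rho = -0.31) and 0.447 (exact p = 0.266; rho = 0.333). A diet group of 4 mice is too small for a correlation of its own.

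**Figure D3:**
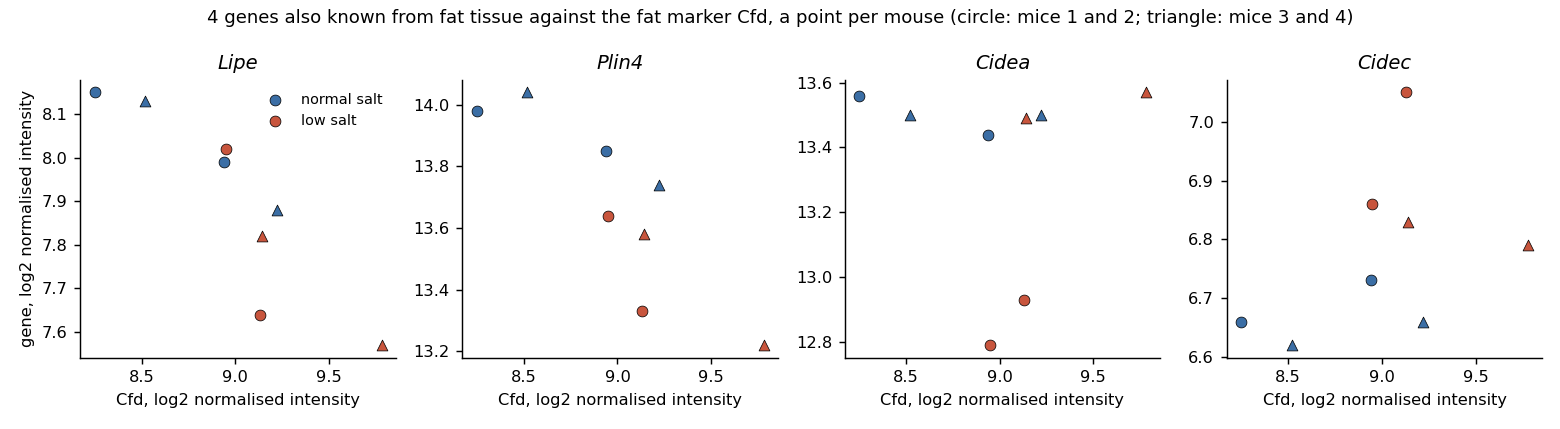
Each panel plots the log2 normalised intensity of Lipe, Plin4, Cidea or Cidec against that of Cfd, a point per mouse (blue, normal salt; red, low salt; circles, mice 1 and 2; triangles, mice 3 and 4). Lipe and Plin4 run downward with Cfd (r = -0.89 and -0.86), while Cidea and Cidec do not (r = -0.0376 and 0.409). Axes are cut to the range of the data.

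Further genes of droplet and lipid metabolism were read from lists, and 0 passed the test in any of them in limma. Over all 18132 genes, 2045 had an unadjusted p under 0.05. Of 16 other droplet proteins 14 were measured, with 2 at an unadjusted p under 0.05 and a median difference of 0.07. Ldah, a droplet-associated hydrolase, was 0.71 ± 0.18 (SE) higher with low salt (adjusted p 0.158), with the groups apart, but its other probe differed by -0.06, and the spots around the brighter probe were 0.25 higher. Cideb, the CIDE protein of liver, differed by 0.50 (adjusted p 0.416), and by 0.34 at its other probe.

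Among lipases and their partners, 12 of 14 were measured, 2 reached an unadjusted p under 0.05, and the median was -0.07. Mgll, which completes the breakdown that Pnpla2 and Lipe begin, was lower in every low salt mouse, at 13.72, 13.56, 13.68 and 13.43 against 13.28, 13.16, 13.22 and 13.14. Its difference was -0.39 ± 0.09 (SE; 95% interval -0.61 to -0.18, adjusted p 0.141), and at 2 further bright probes it was -0.59 and -0.59. Ces1d, a carboxylesterase that hydrolyses triacylglycerol, differed by -0.73 ± 0.26 (SE, adjusted p 0.354). Abhd5, named for its role as the coactivator of Pnpla2, differed by 0.17 (adjusted p 0.595), and by -0.03 and -0.18 at its other probes.

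In triacylglycerol and sterol ester synthesis, 14 of 17 genes were measured, 4 reached an unadjusted p under 0.05, and the median was 0.00. Gpam, among these 4, differed by 0.41, but by 0.04 at its other probe, and the spots around the brighter probe were 0.34 higher. Gpat4, also among these 4, was lower with low salt (-0.50, adjusted p 0.433). It stood at 11.39 and 11.53 in low salt mice 1 and 2 and at 12.21 and 12.24 in low salt mice 3 and 4. Of the lipins, which make the diacylglycerol that Dgat2 uses, Lpin3 and Lpin1 had the smallest p-values of the list, while Lpin2 differed by 0.02 (adjusted p 0.96). Lpin3 differed by 0.43 ± 0.11 (SE, adjusted p 0.177) and Lpin1 by 0.48 ± 0.13 (SE, adjusted p 0.203), both with groups apart, and a second, dim Lpin1 probe differed by 0.08. Dgat1, the other enzyme of the last step and named for that role, differed by 0.20 (adjusted p 0.48), against -0.19 for Dgat2.

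PPAR alpha is a fatty acid sensor that drives oxidation genes and, among the members, Plin2 and Plin5. Of 19 PPAR alpha targets 16 were measured, 10 with a lower and 6 with a higher mean with low salt, a median of -0.12, and 1 at an unadjusted p under 0.05. Cpt1b, which carries long fatty acids into muscle mitochondria, was lower in every low salt mouse, at 14.03, 14.17, 14.00 and 14.06 against 13.82, 13.79, 13.77 and 13.80. The difference was -0.27 ± 0.09 (SE, adjusted p 0.33) and -0.28 at its second probe. Acot2, a mitochondrial thioesterase, differed by -0.44 (adjusted p 0.531).

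**Figure D4:**
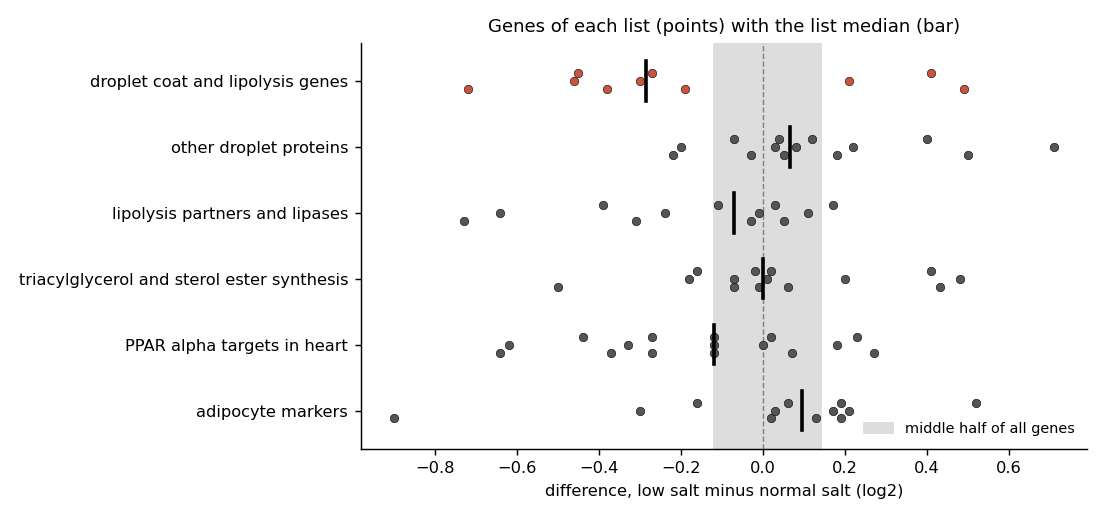
Each point is the difference of a gene (low salt minus normal salt, log2), by list, with the list median as a bar; the grey band is the range between the quartiles of all 18132 genes, -0.12 to 0.14. The 10 members have a median of -0.29, and the medians of the 5 other lists plotted lie between -0.12 and 0.10 (the atrial markers, not plotted, have -1.52). No point passed the test, and members and lists were chosen with earlier results of these data known.

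The genes whose pattern over the 8 samples was most like that of Plin2 were Tg (r = 0.983), Bmpr1a (r = 0.979) and Dcp1a (r = 0.971). For Adipoq they were Unc5b (r = 0.928), Fbxw17 (r = 0.922) and Actr10 (r = 0.918). These are the highest values of all genes tested, given as a description over 8 samples that share arrays, and the signal of Adipoq was low.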

How the data were processed

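Left ventricle RNA of 8 mice was measured on 4 arrays. The deposited scanner tables hold an intensity and a local background per spot and channel, per the file headers. These list Agilent Feature Extraction 11.5.1.1 and probe coordinates on mm9. The deposited value table of the series was not used, since its rows could not be named. Each array had 44397 spots, 43020 of them not controls. Each sample was read in its own dye.

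Signals were corrected with normexp (offset 50), with flagged local backgrounds replaced by the channel median and flagged spots left out of the fit, a step added after the files were seen. Loess within arrays (control weight 0), Aquantile between arrays and log2 followed, in limma 3.58.1 (R 4.3.3, statmod 1.5.0). Control and flagged spots were left out, spots of a probe averaged, and a probe was kept if 4 or more samples had it well above background. The brightest probe stood for its gene. Names came from RefSeq accessions for 27508 probes, with 3544 named by symbol and 404 by synonym, and 7973 kept the file's name. The model held diet and dye, with array as a random block, followed by eBayes, with p-values (2-sided) adjusted over all genes by Benjamini-Hochberg and a threshold of 0.05. The local trend is the median over non-control spots within 12 rows and 4 columns, relative to the mean of all samples. The fit was tested on simulated data.

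The same mouse numbers occur in both diets. Deviations from the group mean correlated at 0.30, 0.15, 0.17 and 0.19 between same-numbered mice, each mouse best with its own number. With dye removed, the 2 mice of a dye and diet mirror each other. Mice 1 and 3 then share a value by construction (0.21), and so do mice 2 and 4 (0.11). The pairing by number comes from the data alone, and a number also fixes the dye.

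Named genes were all members, both fat markers and the 2 list genes with the smallest p. Myl2, Plin1, Ucp1, Abhd5 and Dgat1 were added for their role. Irx4, Nppa, Gpam, Gpat4 and Lpin2 were added to show more of their lists. Members and lists were chosen with earlier results of these data known. The alternatives were the background correction, normalization, filter, choice of probe, block, dye, each mouse or array left out, and fat markers as a covariate.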

Additional observations from a re-analysis of the deposited data

Results flagged for a closer look

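Plin5 in low salt mouse 2 stood at 14.58 log2 normalised intensity, with the nearest low salt mouse at 14.30. The gap was 0.845 of the range of the group, above Dixon's 95% critical value for 4 samples. It was the 1 such value among 24 groups tested (12 genes in 2 diets), and chance marks about 1 group in 20.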

How the results depend on the processing

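Of the 10 members, 0 higher and 0 lower were called when any 1 mouse was left out, with a median difference from -0.34 to -0.24. Under the other 19 alternatives the median lay between -0.31 and -0.16. The number of members called moved under 4 of them. With mouse number as a replicate block 1 was higher and 2 were lower, where 550 of all genes were higher and 178 lower. With no array term 1 was lower (G0s2), where 489 of all genes were higher and 141 lower. Leaving out the array with normal salt mice 3 and 4 gave 1 higher (Plin5), where 184 of all genes were higher and 54 lower. Leaving out the one with low salt mice 3 and 4 gave 3 lower (Cidea, Plin2 and G0s2), where 655 of all genes were lower and 450 higher. The last 2 leave a diet with a single array, so their calls do not measure diet apart from that array. The replicate block changed no other member's call.

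The sign of Pnpla2 turned (0.01) with the array of N3 and N4 left out, and that of Cidea (0.03) with the array of L1 and L2 left out (N, normal salt; L, low salt; then the mouse number). The small difference of Adipoq turned with the Cy3 samples alone (-0.04), without normal salt mouse 2 (-0.02; -0.02 to 0.15 over all single mice left out) and with fat markers as a covariate (-0.07), where Adipoq is adjusted for a mean that holds it, so that this value says nothing of its stability. The other causes were not tested.

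Counts over all genes, 150 higher and 7 lower, moved more: 53 to 103 and 1 to 25 with a mouse left out, 489 and 141 with no array term, 61 and 14 with the local trend subtracted, and 29 higher with the processed signal. The lower count moved most, to 655, with 450 higher, when the array of low salt mice 3 and 4 was left out. Limma called 0 with the 2 mice of an array averaged (1579 genes at an unadjusted p under 0.05), with no normalization between arrays (779), with Cy3 alone (1871) and with Cy5 alone (1258). Signal over background limits Cidec and Adipoq, which a filter on all 8 samples removed.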
